A study of Mus musculus with 2 samples.

Results

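Among the single-cell profiles of jejunal crypts of 375KO mice, 68 of the 3275 annotated cells carry the label IEL (intraepithelial lymphocytes), and they are described here. They were taken by the authors' own annotation, 50 of 2082 cells in replicate 1 and 18 of 1193 in replicate 2. The remaining 3207 annotated cells belong to 9 epithelial types. Both mice were males of 12 months without miR-375 in any tissue (strain label C57BL6/2J), made by CRISPR/Cas9 deletion and backcrossed to B6 albino, and each gave 1 library from dispase-treated crypts and the 10x 3′ v2 kit. There was no second genotype in the libraries used, so no value below measures an effect of miR-375.

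Intraepithelial lymphocytes are T cells that sit between the cells of the gut lining. Most recognise antigen through a T cell receptor held in a complex with the CD3 chains, many carry CD8 as a pair of alpha chains, and they store granzymes, proteases that are released into target cells. They are held in the epithelium by the integrin of Itgae and Itgb7, whose partner on the epithelial cell is E-cadherin (Cdh1), and are drawn there by the chemokine Ccl25 through its receptor Ccr9.

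Replicate 1 stood apart from replicate 2 in the depth of its smallest barcodes and of its IEL. Its matrix begins at 485 UMIs (unique molecular identifiers, each counting 1 captured RNA) per barcode, and that of replicate 2 at 7842. The IEL of replicate 1 had a median of 4110 UMIs and 1669 genes, against 10226 UMIs and 2669 genes in replicate 2, and 45 of the 50 lay below the smallest barcode of replicate 2. The genes detected ranged from 1507 to 3766 in replicate 1, just above the authors' limit of 1500 genes, with 13 cells under 1600. In replicate 2 they ranged from 2225 to 4557. The matrices shared 0 barcodes. The IEL sums hold 262594 and 225423 UMIs, so that 1 UMI is worth 3.81 and 4.44 CPM (UMIs of a gene per 1000000 UMIs of the sum). Levels below are CPM of these sums in replicates 1 and 2, with exact Poisson 95% intervals where given. They cover counting error only, and cells of 1 mouse are not replicates of it. A UMI tags the 3′ end of a molecule, so levels do not scale with transcript length.

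IEL made up 2.40% of the annotated cells in replicate 1, with an exact Clopper-Pearson 95% interval from 1.79 to 3.15%. In replicate 2 they made up 1.51%, with an interval from 0.897 to 2.37%. The mean was 1.96% ± 0.631 (SD, n = 2). The difference was not called (two-sided Fisher's exact test, p = 0.0976, adjusted p = 0.186 over the 10 annotated types). It turned round among cells with at least 2000 genes, where IEL made up 0.408% in replicate 1 and 1.53% in replicate 2 (Fisher's exact test, adjusted p = 0.00431). Among cells with at most 10% mitochondrial UMIs the shares were 4.24% and 1.68% (Fisher's exact test, adjusted p = 0.00123). The test compares these libraries, whose matrices begin at 485 and 7842 UMIs per barcode, and not conditions.

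All 6 lymphocyte markers stood far above every epithelial type in both mice. They are Cd3g (chromosome 9, 44969572 to 44980431, mm10) and Cd3e (chromosome 9, 44998740 to 45009627), which are CD3 chains, Cd7 (chromosome 11, 121036747 to 121039418), a surface protein of T and natural killer cells, the granzymes Gzma (chromosome 13, 113093825 to 113100981) and Gzmb (chromosome 14, 56258838 to 56262260), and the chemokine Ccl5 (chromosome 11, 83525778 to 83530518). Cd3g reached 1904 CPM in replicate 1 (1741 to 2079) and 532 CPM in the other mouse (441 to 637). Gzma reached 5495 (5215 to 5786) and 3775 (3526 to 4038), and Ccl5 reached 7255 (6932 to 7588) and 4179 (3916 to 4454). Cd7 stood at 1679 and 803, Gzmb at 1059 and 470, and Cd3e at 297 and 319. The highest epithelial level of any of these was Ccl5 in the 20 enteroendocrine cells (EEC) of replicate 2, at 845 CPM, of which 97 of the 182 UMIs lay in 1 cell. Cd3g, Gzma, Gzmb, Ccl5 and Cd7 were among the genes from which the authors named the clusters, as were Cd8a and Itgae, described below. The most variable genes of these cells also entered the clustering, so these levels describe the label and are no test of it.

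**Figure D1:**
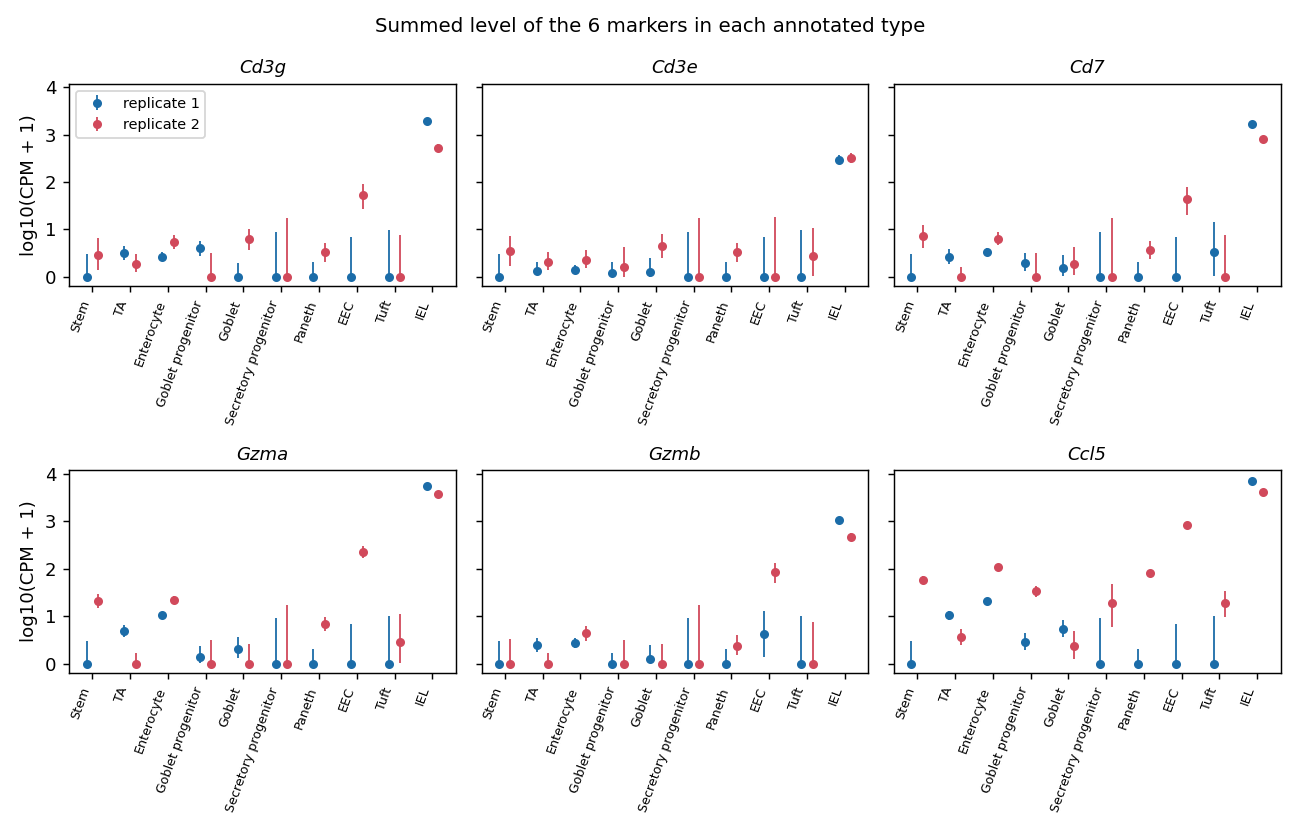
Level of the 6 markers in the summed cells of each annotated type, as log10(CPM + 1), with exact Poisson 95% intervals. Points are the 2 mice. The IEL points lie above those of all 9 epithelial types in each panel, and the nearest are Ccl5 and Gzmb in the EEC of replicate 2.

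Thinned to 3000 UMIs per cell with 0 cells left out, a Cd3g UMI was found in 56% of the IEL of replicate 1 and 50% of those of replicate 2, as without thinning, against 0.295% and 0.851% of epithelial cells. The marker UMIs were thus unevenly spread among the IEL. Summing the 3 CD3 genes Cd3d, Cd3e and Cd3g, 28 of the 50 cells in replicate 1 (56%, exact interval 41.3 to 70.01%) and 9 of the 18 in replicate 2 (50%, 26.0 to 74.0%) had UMIs, and the other 31 of the 68 had none. No cell lay in between, since the cells with CD3 UMIs held at least 8 in replicate 1 and at least 9 in replicate 2, with a median of 26 in both. Depth was alike in the classes, with medians of 4115 and 4078 UMIs in replicate 1 and 9183 and 10671 in replicate 2 for cells with and without CD3. The data therefore go against the label for the 31 cells without CD3, and the classes are called CD3+ and CD3- cells below.

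The authors' clusters followed this division in replicate 1 but not in replicate 2. Their cluster 11 held 28 cells of replicate 1 and 5 of replicate 2, all CD3+. Cluster 14 held 22 cells of replicate 1, of which 0 had CD3, and 13 of replicate 2, of which 4 had. Summed RNA was 162363 UMIs for the CD3+ and 100231 for the CD3- cells of replicate 1, and 129963 and 95460 in replicate 2, so the CD3- cells gave 38.2% and 42.3% of what is counted as IEL.

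**Figure D2:**
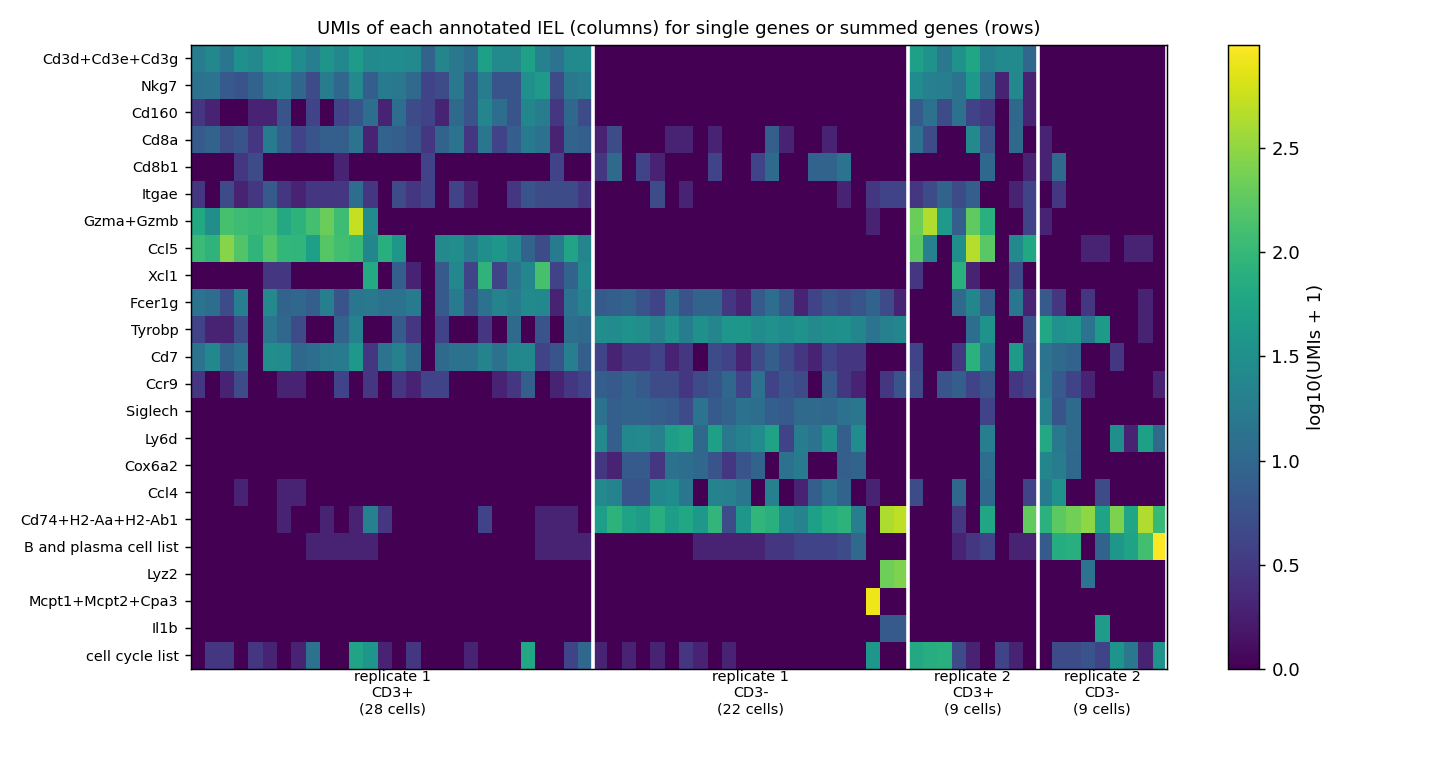
UMIs of each of the 68 annotated IEL (columns, grouped by mouse and by the presence of CD3 UMIs) for single or summed genes (rows), as log10(UMIs + 1). The CD3 and Nkg7 rows fill the CD3+ columns and are empty in the CD3- columns, where Tyrobp, Siglech, Ly6d and Cd74 with H2-Aa and H2-Ab1 fill most columns in replicate 1 and B and plasma cell genes fill several in replicate 2.

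Of 1688 genes with at least 10 UMIs in both mice in either class, 42 (2.49%) were at least 4-fold higher in CD3+ than in CD3- cells in both mice and 54 (3.2%) at least 4-fold higher in CD3- cells. The CD3 genes made the classes, and genes of these cells built the clusters, so these counts carry no test. Leading the CD3+ side were Gzma, Ccl5, Gzmb, Nkg7, Cd3g, Dapk2 and Xcl1. Nkg7, a protein of cytotoxic granules, had UMIs in 28 of 28 and 9 of 9 CD3+ cells and in 0 of 31 CD3- cells, at 2174 and 1185 CPM. Cd160, a receptor of cytotoxic lymphocytes, had UMIs in 24 of 28 and 8 of 9 CD3+ cells and in 0 CD3- cells. Car2, a carbonic anhydrase, stood at 388 and 131 CPM in CD3+ cells, with 1 CD3- cell in each mouse holding a UMI. The kinase gene Dapk2 stood at 511 and 246 CPM against 19.95 and 10.5.

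The CD3 complex was read through Cd3d, Cd3e, Cd3g and Cd247, all 4 of which were called higher in IEL, that is, at least 4-fold above the mean of the 9 epithelial types in both mice. Of the 3309 genes compared, 315 (9.52%) were called higher. In CD3+ cells Cd3g stood at 3080 and 923 CPM, Cd3d at 1078 and 592, Cd3e at 480 and 554 and Cd247, the signalling zeta chain, at 61.6 and 154. The order of Cd3d and Cd3e was thus nearly level in replicate 2. Signalling genes next to the receptor accompanied them. Of 17 such genes, 10 reached the 10-UMI minimum and 9 were called higher. The kinases Lck (493 and 377 CPM in CD3+, 39.9 and 41.9 in CD3- cells) and Zap70 (222 and 154, and 0 UMIs in CD3- cells) and the adaptor Skap1 (296 and 146, and 0 UMIs in CD3- cells) kept to the CD3+ class. Fyn did not, with 191 and 154 CPM in CD3+ and 409 and 73.3 in CD3- cells. Ptpn6, a phosphatase of blood cells, was not called, and stood highest among epithelial types in tuft cells, at 351 and 298 CPM.

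Accessory receptors of conventional T cells were low. None of the 7 (Cd2, Cd5, Cd6, Cd28, Thy1, Cd27 and Icos) reached the minimum of 10 UMIs in both mice. Their sum in CD3+ cells was 296 CPM in replicate 1 and 700 in replicate 2. Thy1, a surface protein of most circulating T cells, had UMIs in 4 of 28 and 4 of 9 CD3+ cells, Cd5 in 3 and 6, and Cd28 in 1 and 2. Cd27 was more widely found in replicate 1, in 17 of 28 CD3+ cells against 4 of 9 in replicate 2. The IEL of replicate 2 held more UMIs per cell, though all its annotated cells did not (medians of 16475 in replicate 1 and 15232 in replicate 2). More UMIs in a cell raise the chance of finding a gene, and the part of this in these counts was not tested.

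The CD8 chains parted between the classes. Cd8a, the alpha chain, had UMIs in 28 of 28 CD3+ cells of replicate 1, with 1 to 16 UMIs each and a median of 7, and in 5 of 9 in replicate 2, with 0 to 25 and a median of 4. Its level in CD3+ cells was 1213 and 431 CPM. Cd8b1, the beta chain, had UMIs in only 5 of 28 and 2 of 9 CD3+ cells, at 80.1 and 76.9 CPM, so that 23 and 4 CD3+ cells held alpha without beta UMIs. In replicate 2, 9 of the 10 Cd8b1 UMIs of CD3+ cells lay in 1 cell, which also held 34 Tyrobp and 3 Siglech UMIs. In CD3- cells the beta chain was the higher in both mice, at 609 and 115 CPM against 170 and 10.5 for Cd8a, though in replicate 2 this rests on 1 cell with 10 of the 11 UMIs. In replicate 1 the CD3- cells held 82.4% of all Cd8b1 UMIs of IEL. Cd4 had UMIs in 0 of 28 and 2 of 9 CD3+ cells, and in 5 of 22 and 2 of 9 CD3- cells, with 11 UMIs in all. A share of Cd8b1 or Cd4 across all annotated IEL therefore mixes unlike cells.

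Cytotoxic granule genes stood higher in CD3+ than in CD3- cells in both mice, and most of their sum was Gzma, a gene used to name the label. Of the 17 listed, 7 reached the minimum and 7 were called higher than epithelium, and their sum was 15274 and 9680 CPM in CD3+ against 1387 and 953 in CD3- cells. Gzma gave 8887 and 6548 CPM of it. Ctsw, a cathepsin of cytotoxic cells, stood at 628 and 208, Cst7 at 333 and 223, and Serpinb6b, a protease inhibitor, at 203 and 177. Srgn, the proteoglycan that packs granules in many blood cells, was in every CD3+ and every CD3- cell. Prf1, which encodes the pore-forming perforin, had 1 UMI in the IEL of each mouse. Gzmk and Gzmm, other granzymes, had 0 and 5 and 1 and 0 UMIs. Fasl, a death ligand, had 10 and 1.

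Granzyme UMIs were unevenly spread over the CD3+ cells. In replicate 1, 13 of 28 CD3+ cells held 27 to 538 UMIs of Gzma and Gzmb together, with a median of 115, and the other 15 held 0. In replicate 2, 6 of 9 held 7 to 432, with a median of 132, and the other 3 held 0 to 3. These groups were set by the granzyme UMIs themselves, and their depths overlapped (3525 to 18585 and 3148 to 11697 UMIs in replicate 1). A single cell gave 33.8% of the Gzma UMIs in replicate 1 and 50.1% in replicate 2, so the Gzma level of the sum rests on few cells. Ccl5 was higher in the granzyme-bearing cells of replicate 1, with a median of 103 UMIs against 24, and their ranges overlapped (23 to 282 and 0 to 74). Cd8a medians were 6 and 7 UMIs in granzyme-bearing and other CD3+ cells of replicate 1, and 4.5 and 0 in replicate 2.

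Xcl1, a chemokine that attracts cross-presenting dendritic cells, lay mostly in cells without granzyme UMIs in replicate 1 but not in replicate 2. It had 3 or more UMIs in 13 CD3+ cells of replicate 1 and 2 of replicate 2, with up to 131 in a cell. In replicate 1, 12 cells held granzyme only (5 or more UMIs), 12 held Xcl1 only, 1 held both and 3 neither. In replicate 2, 5 held granzyme only, 1 held Xcl1 only, 1 held both and 2 neither. Xcl1 had UMIs in 0 CD3- cells and at most 4.64 CPM in any epithelial type. In replicate 2 a single cell gave 92.0% of its UMIs, and it is the cell that also held granzyme, with 80 Xcl1 and 7 granzyme UMIs. The limits of 5 and 3 UMIs were chosen after the values were seen.

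**Figure D3:**
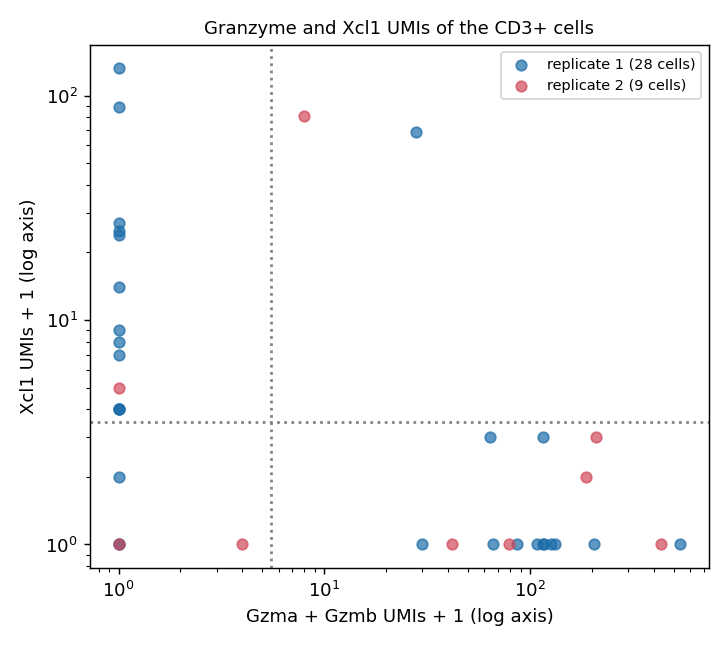
Gzma and Gzmb UMIs together (horizontal) against Xcl1 UMIs (vertical) in each of the 37 CD3+ cells, both plus 1 on log axes. Dotted lines mark the limits of 5 and 3 UMIs. Most cells lie along one axis or the other, and 2 cells lie in the upper right field.

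Promoter sequence is shown for 1 gene of each of these patterns (Gzma, Xcl1 and, for the CD3- cells described next, Siglech), because Runx3, which drives the CD8 and cytotoxic programme of T cells, was itself measured in IEL at 286 and 151 CPM against at most 4.64 in any epithelial type. Runx3 was found in both classes, at 326 and 154 CPM in CD3+ and 219 and 147 in CD3- cells. The windows run from 250 bases before to 50 after the RefSeq start (GRCm38.p6) and are written 5′ to 3′ on the strand of the gene. Capitals mark TGTGGT, the core letters of RUNX sites, or its reverse complement ACCACA. Gzma lies on the minus strand at chr13:113100932-113101231, Xcl1 on the minus strand at chr1:164935473-164935772 and Siglech on the plus strand at chr7:55767934-55768233.
Gzma: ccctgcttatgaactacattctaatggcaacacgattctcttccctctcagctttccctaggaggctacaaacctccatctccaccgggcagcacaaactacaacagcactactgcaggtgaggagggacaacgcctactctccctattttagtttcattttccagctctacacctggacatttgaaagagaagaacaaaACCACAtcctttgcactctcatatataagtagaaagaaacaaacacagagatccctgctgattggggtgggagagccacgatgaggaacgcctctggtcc
Xcl1: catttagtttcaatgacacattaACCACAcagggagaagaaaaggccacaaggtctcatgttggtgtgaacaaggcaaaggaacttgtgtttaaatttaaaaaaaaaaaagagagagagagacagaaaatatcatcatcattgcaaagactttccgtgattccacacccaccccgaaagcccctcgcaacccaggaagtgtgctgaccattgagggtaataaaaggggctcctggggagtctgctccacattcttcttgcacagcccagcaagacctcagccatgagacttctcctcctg
Siglech: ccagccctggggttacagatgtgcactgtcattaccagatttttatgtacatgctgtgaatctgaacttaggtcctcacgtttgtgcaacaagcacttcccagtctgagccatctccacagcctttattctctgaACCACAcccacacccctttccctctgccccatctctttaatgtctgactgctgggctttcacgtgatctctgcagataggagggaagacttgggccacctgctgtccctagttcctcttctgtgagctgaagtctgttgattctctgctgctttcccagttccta
Each of these windows holds 1 match and that of Gzmb holds 2, while those of Cd3d, Cd3e, Cd3g and Cd8a hold 0. Over all 32851 windows of 300 bases, 16.8% hold a match. The sets that follow count genes, each once if any of its windows holds a match, so their shares and this one are in unlike units. Of the 20 genes that lead the CD3+ side, 17 have a window and 8 of these hold a match. Of the 20 that lead the CD3- side it is 3 of 15, and of the 20 genes most above the highest epithelial type, given further on, it is 5 of 11. A match is a description of letters and not a bound site.

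Adaptors and receptors of natural killer type were present with a narrow choice of genes. Fcer1g, an adaptor that can replace the zeta chain, stood at 2143 and 423 CPM in CD3+ and 1167 and 115 in CD3- cells. Tyrobp, the adaptor DAP12, showed the reverse, with 696 and 385 against 5986 and 1948 CPM, and was in 17 of 28 and 3 of 9 CD3+ cells. In replicate 2, 34 of the 50 Tyrobp UMIs of CD3+ cells lay in 1 cell, which also held Siglech UMIs. Klrd1, the CD94 chain, reached 647 and 154 CPM in CD3+ cells, but its usual partners Klrc1 and Klrc2 had 0 UMIs in the IEL of both mice, as had Klra1, Klra3, Klra7, Ncr1 and Klrg1. A count of 0 has an exact Poisson upper limit of 14.0 CPM in replicate 1 and 16.4 in replicate 2. Cd96 stood at 240 and 84.6 CPM in CD3+ cells and Cd244 at 142 and 84.6. Of the 17 receptors of this kind, 4 reached the minimum and all 4 were called higher.

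Of 18 chemokine and cytokine genes, 5 were called higher, namely Ccl5, Xcl1, Ccl4, Ltb and Tgfb1. Ifng had 3 UMIs in replicate 1 and 0 in replicate 2, Il2 had 1 and 0, and Il10, Il13, Il17a, Il22 and Areg had 0 in both. Ltb, a ligand for lymphoid tissue, stood at 222 and 208 CPM in CD3+ and 519 and 346 in CD3- cells. In replicate 1 the CD3- value rests on 3 of 22 cells, with 28 of the 52 UMIs in 1 of them, while 16 of 28 CD3+ cells had UMIs. Ccl4, which attracts other leukocytes, came from the CD3- cells of replicate 1, with 2245 CPM there against 18.5 in CD3+ cells. In replicate 2 the values were 555 and 192. Tgfb1, which encodes a cytokine that restrains T cells, stood at 187 and 186 CPM in IEL, with 129 and 100.03 in CD3+ and 279 and 304 in CD3- cells.

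Homing and residence genes were shared by the classes. The list of 22 summed to 3923 and 2108 CPM in CD3+ and 4200 and 2053 in CD3- cells, with 13 genes at the minimum and 10 called higher than epithelium. Itgae leaned to the CD3+ cells (437 and 223 CPM against 140 and 21.0), in 23 of 28 and 7 of 9 of them. Ccr9 leaned to the CD3- cells in replicate 1, at 978 CPM against 240, and was nearly level in replicate 2, at 262 and 223. S1pr1 and Ccr7, which carry lymphocytes out of tissue and to lymph nodes, had 0 UMIs in replicate 1 and 3 and 5 in replicate 2. Cd44 was higher in CD3- cells, at 180 and 597 CPM against 12.3 and 76.9, though 1 cell gave 71.6% of its UMIs in replicate 2. Rgs1, a brake on chemokine receptor signals, reached 1614 and 362 CPM in CD3+ cells.

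Of 23 transcription factors, 8 were called higher than epithelium. Id2, Ets1 and Tcf7 were found on the CD3+ side in replicate 1 (468, 222 and 148 CPM against 99.8, 49.9 and 0). In replicate 2 Id2 stood at 346 against 293, Ets1 at 100.03 against 62.9 and Tcf7 at 69.2 against 21.0. There, 24 of the 28 Id2 UMIs of CD3- cells lay in 1 cell. Zeb2 had 49.3 and 15.4 CPM in CD3+ and 190 and 147 in CD3- cells. Foxp3, Zfp683 and Sox13 had 0 UMIs in the IEL of both mice, and Zbtb16 had 1 and 0. Among cytokine receptors Il2rb, the chain shared by the receptors for IL-2 and IL-15, stood at 154 and 76.9 CPM in CD3+ cells and had 0 UMIs in CD3- cells. Of 10 inhibitory receptors and ectoenzymes only Lag3 reached the minimum, and it was called higher (202 and 53.2 CPM in IEL).

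The CD3- cells carried other genes. In replicate 1, 19 of the 22 held 3 or more UMIs of Siglech, a lectin known from plasmacytoid dendritic cells. The sum over CD3- cells was 1696 CPM against 0 UMIs in the CD3+ cells. Ly6d had a median of 19.5 UMIs and at most 56 in the CD3- cells of replicate 1 and reached 4719 CPM. Bst2 stood at 2674, Irf8, a factor of dendritic cell development, at 2375, and Tcf4, the factor that maintains plasmacytoid dendritic cells, at 918 CPM. Class II genes were present in the same sum, with Cd74, the invariant chain, at 11094 and H2-Aa at 3961 CPM. Much of this came from 2 cells without Siglech UMIs, described next. They held 217 and 267 Cd74 UMIs, beside a median of 36 over the 22 cells. In CD3+ cells of replicate 1 Bst2 had 37.0, Irf8 135, Tcf4 30.8 and Cd74 105 CPM. Cd7, one of the 6 markers, was found in 18 of these 22 CD3- cells, with 469 CPM.

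The other 3 CD3- cells of replicate 1 differed from these 19. Lyz2, the lysozyme of phagocytes, had 261 and 218 UMIs in 2 cells and 0 in the other 20. A further cell held 830 UMIs of the mast cell proteases Mcpt1, Mcpt2 and Cpa3, of which all 513 Mcpt1 and all 295 Mcpt2 UMIs of the IEL of this mouse came from it. The summed levels of Lyz2 (1824 CPM), Mcpt1 (1954) and Mcpt2 (1123) in the IEL of replicate 1 thus rest on these 3 cells.

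In replicate 2 the CD3- cells were mixed in another way. Only 3 of 9 held 3 or more Siglech UMIs, and 6 held 25 or more UMIs of the B and plasma cell list, 2 of them with both. Cd79a and Cd79b, the signalling chains of the B cell receptor, reached 1152 and 974 CPM in CD3- cells, and Ms4a1 (CD20) 377. Jchain, which links secreted antibodies, had 928 UMIs, 894 of them in 1 cell. In all 50 IEL of replicate 1, Cd79a had 1 UMI and Ms4a1 and Jchain had 0. Il1b, an inflammatory cytokine, had 45 UMIs in 1 cell of replicate 2. All 9 cells held class II genes, with 54 to 437 UMIs of Cd74, H2-Aa and H2-Ab1. A CD3+ cell of replicate 2 held 20 CD3, 78 granzyme, 34 Tyrobp and 3 Siglech UMIs together. The doublet score of this cell, 0.0620 on a scale to 1, was the highest in the IEL of this mouse, and the next was 0.0338. Whether the barcode holds more than 1 cell was not tested.

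**Figure D4:**
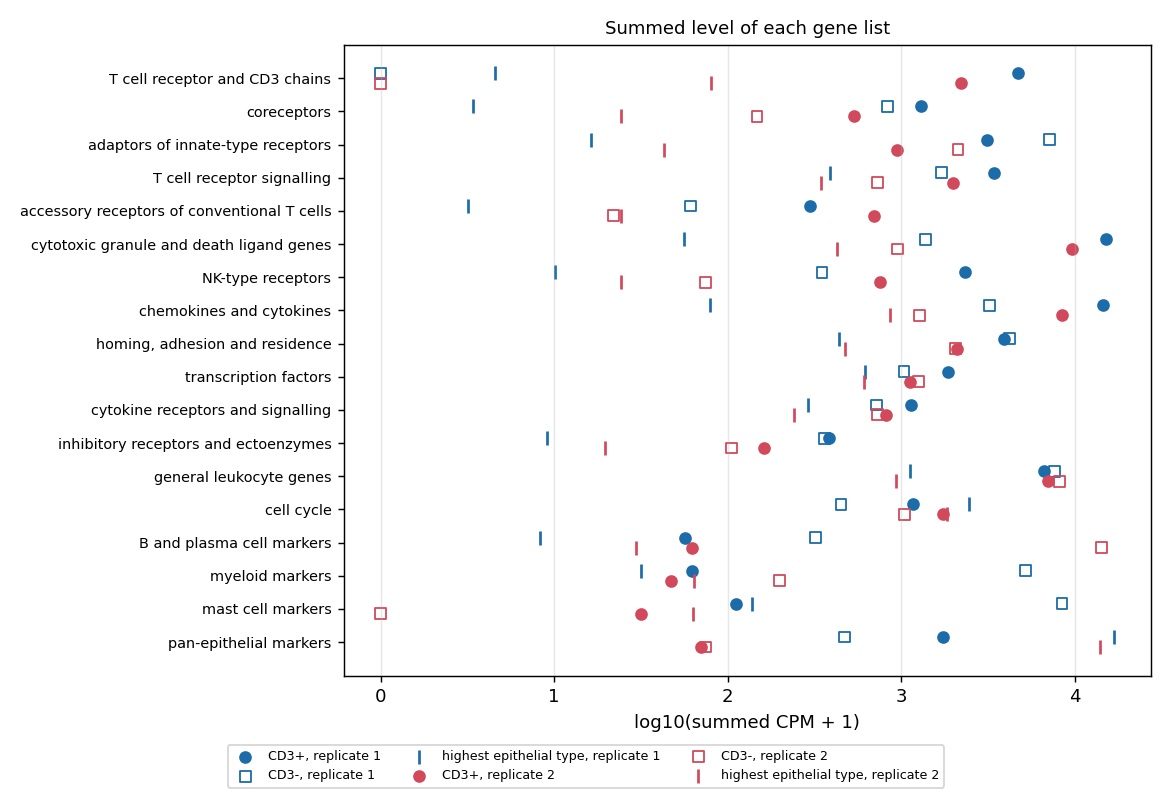
Summed level of each gene list, as log10(summed CPM + 1), in CD3+ (filled circles) and CD3- cells (open squares) of both mice, with the highest epithelial type as a vertical mark. The granule, T cell receptor and natural killer type receptor lists lie higher in CD3+ cells in both mice. The list of adaptors of innate-type receptors lies higher in CD3- cells in both mice. The homing and general leukocyte lists coincide, and the B cell, myeloid and mast cell lists lie high in CD3- cells of 1 mouse each.

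Genes common to leukocytes did not separate the classes. Of 15 such genes 12 were called higher in IEL than in epithelium, and their sum was 6652 and 7064 CPM in CD3+ and 7672 and 8223 in CD3- cells. Coro1a, an actin regulator, stood at 1115 and 1647 against 1107 and 765 CPM, and Cd52, a small surface glycoprotein, at 1355 and 1239 against 1896 and 2734. The gene with the highest level in IEL outside ribosomal and mitochondrial genes was Tmsb4x, the actin-binding thymosin beta 4, at 21661 and 16569 CPM, where epithelial types reached at most 5133 and 4877. Next were Malat1, Eef1a1, Actb and Tpt1, and none of these 4 was called.

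The 20 genes with the largest ratio of IEL to the highest epithelial type, taking the smaller ratio of both mice, were mostly genes of the CD3- cells. They were Ly86, Ly6c2, Bcl2a1d, Ccl4, Gpr18, Bcl2a1b, Napsa, Siglech, Tyrobp, Rgs10, Cybb, Il1b, Spi1, Ncf1, Ctsw, Ly6d, AI662270, Sla, Ccr1 and Cd8b1. In 13 of the 20 more than 50% of the IEL UMIs came from CD3- cells in both mice, and in 2 from CD3+ cells in both. Not all are spread over the class. Il1b had 6 UMIs in each of the 2 Lyz2 cells of replicate 1 and 45 in 1 cell of replicate 2. The rank depends on the highest epithelial type, which for Cd3g and Nkg7 was the EEC in replicate 2. Cd3g had UMIs in 3 of those 20 EEC. Its ratio was 639 in replicate 1 and 10.4 in replicate 2, and that of Nkg7 was 840 and 9.81, so such genes fell out of the 20. Ly86, a partner of a toll-like receptor relative, led with 209 and 111 CPM and 0 UMIs in all epithelial types, and had UMIs in 20 of 22 and 7 of 9 CD3- cells. Bcl2a1d and Bcl2a1b are near-identical genes, so their separate levels are uncertain.

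Genes lower in IEL numbered 313 of 3309 (9.46%), and 37 of them had 0 UMIs in the IEL of both mice. The 10 with the highest epithelial mean were the Paneth defensin genes Defa24, Gm15284, AY761184 and Defa22, the Paneth lysozyme Lyz1, the goblet genes Tff3, Zg16 and Spink4, the enteroendocrine hormone Gip and the lectin Lgals2. In replicate 2 all 10 had 0 UMIs in IEL. In replicate 1 they had 1 to 573 UMIs. Defa24 was in 48 of 50 IEL there, with at most 44 UMIs in a cell and 2182 CPM in sum, and Lyz1 was in 41 of 50. Over the 44 listed epithelial markers the median IEL held 0.666% of its UMIs in replicate 1, with at most 2.32%, and 0.0137% in replicate 2. The part of free RNA in this was not tested. The CD3+ cell of replicate 1 with the highest doublet score, 0.812, held 57 UMIs of the epithelial gene Epcam, and the other 49 IEL of that mouse held at most 6.

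Epithelial partners of IEL were read on the other side. Of 19 such genes, Ccl25, Cxadr (the partner of the receptor Jaml) and Pvrl2 were called lower in IEL and 0 higher. Ccl25 stood at 80.0 and 0 CPM in IEL and at most 1273 and 1127 in an epithelial type. E-cadherin (Cdh1) stood at 45.7 and 13.3 CPM in IEL against at most 193 and 241, and was not called. The butyrophilin-like genes Btnl1, Btnl2, Btnl4 and Btnl6, some of which shape gut lymphocytes, were low everywhere, with at most 50.9 CPM in any epithelial type.

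Cell cycle genes were neither higher nor lower as a group, with 0 of the 7 genes that reached the minimum called in either direction. They were concentrated in few cells. At least 5 UMIs of the 10 genes were found in 5 of 28 and 3 of 9 CD3+ cells and in 1 of 22 and 4 of 9 CD3- cells. The highest values were 80 UMIs in a CD3+ cell of replicate 2 and 62 in one of replicate 1. Immediate early genes, which rise during tissue dissociation, were likewise uncalled, 0 of the 8 that reached the minimum. Junb stood higher in CD3+ cells (912 and 562 CPM against 329 and 115) and Jun higher in CD3- cells (599 and 105 against 55.4 and 0). Zfp36l2, an RNA-binding protein that shortens the life of transcripts, stood at 141 CPM (99.2 to 194) and 97.6 CPM (61.2 to 148) in IEL, below the stem cells at 246 and 210. Its level was 135 and 115 in CD3+ and 150 and 73.3 in CD3- cells.

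Between the mice, 287 of 3921 genes (7.32%) were at least 4-fold higher in the IEL of replicate 1 and 153 (3.9%) in those of replicate 2. Of these 440 genes, 71 differed 4-fold the same way in the mean of the epithelial types. The largest ratios towards replicate 1 were Defa24, Mcpt1, Mcpt2, Gm10260 and Lyz1, and those towards replicate 2 were Jchain, Cd79a, Rps18, Rpl23a-ps3 and Gm8730. Mcpt1 and Mcpt2 came from 1 cell, and Jchain from 6 cells with 894 of its 928 UMIs in 1 of them. Rps18 had 87.6 and 7457 CPM in IEL and 85.7 and 5121 in the epithelial mean, and Gm10260 had 922 and 13.3 in IEL and 817 and 15.3 in the epithelial mean. Rps18, Gm10260, Rpl23a-ps3 and Gm8730 are ribosomal protein genes or near-identical copies of them, whose reads can be divided between copies, so their levels are uncertain. With 1 library for each mouse, no test was made.

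Most barcodes that carry lymphocyte markers in replicate 1 were outside the annotation. In that matrix 858 barcodes held UMIs of at least 3 of the 6 markers, and 784 of them (91.4%) had under 1500 genes, the authors' limit, while 27 were annotated IEL, 12 annotated epithelial cells, 32 called doublets and 3 over the mitochondrial limit. The 784 are 15.5% of the 5056 barcodes under the limit (exact interval 14.5 to 16.5%) and had medians of 2034 UMIs, 1023 genes and 5.39% mitochondrial UMIs. In replicate 2 the 26 such barcodes were 8 annotated IEL, 15 epithelial cells, 3 doublets and 0 of the 19 under the limit. All 784 lay below the smallest barcode of replicate 2, so whether that mouse had such cells cannot be seen in its matrix. The IEL share given above depends on this limit.

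**Figure D5:**
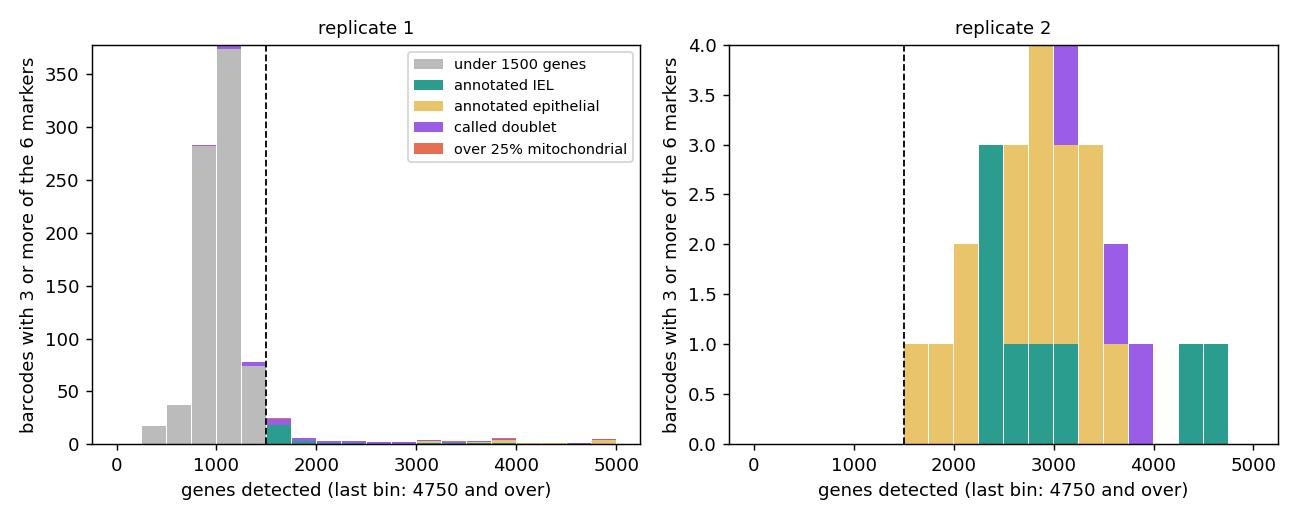
Number of barcodes with UMIs of at least 3 of the 6 markers by genes detected, in bins of 250 genes, for both matrices and by what became of the barcode. The dashed line is the limit of 1500 genes. In replicate 1, 784 of 858 lie left of it and in replicate 2 none of 26 does.

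The barcodes under the limit were chosen by the 6 markers, so only other genes are described. Of the 784, 87.2% had a Cd8a UMI (exact interval 84.7 to 89.5%), 5.74% a Cd8b1 UMI (4.22 to 7.61%) and 1.28% a Cd4 UMI (0.613 to 2.33%). Nkg7 stood at 2789 CPM in their sum, Fcer1g at 2871, Klrd1 at 1310, Rgs1 at 3533 and Itgae at 646, beside 2174, 2143, 647, 1614 and 437 in the annotated CD3+ cells of the same mouse. Siglech and Ly6d had 0 UMIs in them. The annotated CD3- cells held at most 2 of the 6 markers, so the choice by 3 markers leaves such cells out. Prf1 stood at 14.7 and Ifng at 33.8 CPM. The cell cycle list summed to 131 CPM, against 1170 in the annotated CD3+ cells.

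Granzyme and Xcl1 divided these barcodes as well, in other proportions. Chosen by UMIs of at least 2 of Cd3g, Cd3e and Cd7, so that granzymes had no part in the choice, 781 barcodes lay under the limit, and 700 had at least 1500 UMIs. Thinned to 1500 UMIs, 70.4% (exact interval 66.9 to 73.8%) held granzyme only, 6.71% (4.97 to 8.83%) Xcl1 only, 0.714% both and 22.1% neither. The 28 annotated CD3+ cells of replicate 1, thinned alike, gave 42.9% (24.5 to 62.8%) granzyme only and 32.1% (15.9 to 52.4%) Xcl1 only. Without thinning, 70.04% and 8.83% of the 781 held granzyme only and Xcl1 only. These are cells of 1 library, and no test was made. Barcodes with 3 or more Siglech UMIs were also found under the limit, 21 in all, and 0 of these held 3 of the 6 markers.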

How the data were processed

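Per the labels and the study's methods, the authors aligned reads to mm10 with Cell Ranger 3.0.1, removed free RNA with SoupX (from which matrices is not stated), called doublets with scDblFinder, kept cells with at least 1500 genes and at most 25% mitochondrial reads, and clustered them in Seurat. The deposited matrices of UMI counts, the deposited percent of mitochondrial reads and the deposited doublet score were used. The sctransform table was not used, nor were 2937 annotated cells and 6059 doublet calls of another series.

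The annotation table has no barcodes, so its rows were matched in order to the cells of the deposited count table, and those by barcode to the matrices of 27998 genes. The mouse matched in all cells, and UMI totals differed by at most 29 in replicate 1 and 262 in replicate 2. UMIs were summed per mouse and type (Python 3.11.15). A gene was called when, in each mouse, it differed at least 4-fold from the unweighted epithelial mean. It also needed at least 10 UMIs observed (higher) or expected (lower) in IEL, again in each mouse. A count of 0 was read as 3 counts. Shares carry exact intervals, and Fisher's exact test compared the mice. edgeR 4.0.16 gave TMM factors for an alternative. Calls were tested on simulated data.

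The members, markers and gene lists were chosen with earlier results of these data known. Named genes were the markers, listed genes by role, the 20 genes most above the highest epithelial type, 10 called lower, 5 each way between the mice and the 5 highest. The CD3 classes, their leading genes and the limits on Siglech, granzyme and Xcl1 UMIs were added after the data were seen. Classes by T cell receptor genes were planned, and those genes are not analysed here. Coordinates count from 1 and come from GENCODE (mm10).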

Additional observations from a re-analysis of the deposited data

How the results depend on the processing

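Counts of called genes depended on the fold, the minimum, the depth and the cells taken. Against 315 genes higher in IEL, a fold of 2 gave 571, a minimum of 5 UMIs 494, no minimum beyond 1 UMI 1000, thinning to 3000 UMIs 92, and single mice 497 to 626. Against 313 lower, these were 532 with a fold of 2, 97 thinned, 530 with TMM, 4 against the most extreme epithelial type and 435 to 483 in single mice. Against 440 between the mice, a fold of 2 gave 1453, 5 UMIs 756, 1 UMI 905 and thinning 122. Alternatives chosen after seeing the data gave, for higher, lower and between the mice, 176, 188 and 271 in CD3+ cells and 103, 125 and 164 in the authors' cluster 11. CD3- cells gave 140 higher and 147 lower. The mean IEL share (1.96%, single mice 1.51 to 2.40%) was 2.96% with at most 10% mitochondrial UMIs and turned to 0.969% with at least 2000 genes. The mean share of IEL with Cd8b1 (26.1%, 22.2 to 30%) was 18.6% with 2 UMIs needed, 20.6% thinned and 19.0% without the IEL richest in epithelial UMIs. That with Cd4 (16.1%, 10 to 22.2%) was 3.78% and 6.78% under the first 2 of these. That with CD3 (53%, 50 to 56%) was 60.2% without those cells, and that with Cd8a was 33.3 to 72% in single mice. Beyond fewer cells, fewer UMIs and other minimums, the cause was not tested. No paired analysis was possible because there is only 1 group. With 1 library for each mouse, depth and mouse cannot be told apart, and 18 cells in replicate 2 limit its shares.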
